A study of Mus musculus with 11 samples.

Results

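Messenger RNA levels of 10 Krüppel-like factor genes, Klf2, Klf3, Klf4, Klf6, Klf7, Klf9, Klf10, Klf11, Klf12 and Klf13, were followed in mouse hematopoietic stem cells (HSCs) on 11 Affymetrix arrays. They are 10 of the 22180 genes measured. Klf1, the erythroid factor of the family, was left out. Klf5, Klf8, Klf14, Klf15, Klf16 and Klf17 were measured but are not among the members either. The list was drawn up with results of these arrays known. Klf12 had the second largest fall of all genes after polyIC. The members were thus chosen by their listing as Klf genes and selected on the pIC minus PBS values of Klf12. That comparison is therefore given as a description, with no test. HSCs were sorted from mice injected with PBS (3 arrays), with all-trans retinoic acid (ATRA, 3 arrays), with polyIC, a double-stranded RNA that induces interferon (pIC, 2 arrays), or with ATRA followed by polyIC (RApIC, 3 arrays). Strain, genotype, age, doses, times and the sorting gate were not in the labels used here, nor whether replicates came from separate mice, so a p-value covers the spread among these arrays only, and that spread may be technical.

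Krüppel-like factors bind GC-rich and CACCC sequences through zinc fingers at the carboxyl end, and differ in the part of the protein that recruits activators or repressors. Klf2, Klf4 and Klf6 are early-response genes that mostly activate transcription and are known for holding cells in quiescence or arrest. Klf10 and Klf11 are early genes of transforming growth factor beta (TGF-beta) that, like Klf9 and Klf13, recruit the Sin3 corepressor, whereas Klf3 and Klf12 repress through the C-terminal binding protein CtBP. In blood, Klf2 keeps T cells quiescent and Klf4 takes part in monocyte differentiation.

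The promoter windows of the members differ in their letters. RefSeq windows of the GRCm38.p6 build, from 250 bases before to 50 bases after the transcription start, were matched by symbol for 9 of the 10 members, all but Klf10. Below are 4 of the 6 members that fell in the tested comparison with polyIC after ATRA, chosen to show the kinds of motif that were found. All are 5′ to 3′ on the gene's own strand, with every match of a searched motif in capitals.
Klf2 (chr8:72318812-72319111, plus strand): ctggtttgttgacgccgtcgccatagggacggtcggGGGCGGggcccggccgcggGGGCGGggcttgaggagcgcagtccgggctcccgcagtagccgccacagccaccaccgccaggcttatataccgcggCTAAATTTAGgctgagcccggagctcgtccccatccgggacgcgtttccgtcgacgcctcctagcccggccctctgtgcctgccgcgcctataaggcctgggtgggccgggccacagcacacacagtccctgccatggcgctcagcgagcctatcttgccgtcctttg
Klf4 (chr4:55532426-55532725, minus strand): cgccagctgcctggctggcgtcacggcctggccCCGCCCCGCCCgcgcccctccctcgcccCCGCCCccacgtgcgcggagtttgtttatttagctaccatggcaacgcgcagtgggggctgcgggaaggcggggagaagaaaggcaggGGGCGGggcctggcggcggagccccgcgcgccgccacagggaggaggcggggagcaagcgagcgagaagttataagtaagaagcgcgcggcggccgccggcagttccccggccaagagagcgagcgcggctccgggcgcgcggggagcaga
Klf9 (chr19:23140976-23141275, plus strand): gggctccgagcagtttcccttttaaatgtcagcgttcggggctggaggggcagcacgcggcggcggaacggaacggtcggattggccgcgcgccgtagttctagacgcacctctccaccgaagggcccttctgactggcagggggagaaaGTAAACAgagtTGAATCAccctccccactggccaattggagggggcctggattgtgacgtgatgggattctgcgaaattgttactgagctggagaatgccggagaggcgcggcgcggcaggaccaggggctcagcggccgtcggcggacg
Klf12 (chr14:100149747-100150046, minus strand): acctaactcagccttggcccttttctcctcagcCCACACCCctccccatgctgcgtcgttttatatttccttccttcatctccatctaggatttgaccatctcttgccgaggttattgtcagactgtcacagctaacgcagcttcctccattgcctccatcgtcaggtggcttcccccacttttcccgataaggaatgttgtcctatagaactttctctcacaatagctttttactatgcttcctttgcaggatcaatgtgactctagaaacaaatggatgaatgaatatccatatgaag

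In Klf2 the capitals mark 2 GC boxes (GGGCGG) and, 118 bases before the start, a match to the MEF2 site, the sequence bound by the factors through which the ERK5 kinase induces Klf2. In Klf4 they mark 4 GC boxes, of which 2 overlap by a base. In Klf9 they mark a FoxO site (GTAAACA) and an AP-1 site (TGANTCA), and in Klf12 a CACCC box (CCACACCC), itself a sequence that Krüppel-like factors bind. On both strands, a GC box was found in 7 of the 9 windows and in 35.7% of the 32851 windows of all genes. The MEF2 site was in 0.557% of all windows, the FoxO site in 3.65%, the AP-1 site in 7.81% and the CACCC box in 3.56%, and each was in 1 member. The cAMP response element (TGACGTCA), the interferon-stimulated response element (GAAA, 2 bases, GAAA), the retinoic acid DR5 element (2 copies of AGGTCA, 5 bases apart) and the serum response CArG box were in 0 of the 9 windows and in 1.79%, 3.44%, 0.00913% and 1.63% of all windows. The Klf12 window was 45.7% G and C, against 58.3% to 77.7% in the other 8 and a median of 52.7% over all windows. RefSeq's loci of Klf12 and Klf7 extend upstream of these windows, so each window is that of 1 of the gene's starts. The Klf12 letters at the start (cttcctttgcag) have the form of a splice acceptor. That window may therefore not be a promoter, and its composition and CACCC box may not be comparable with the other windows. These matches describe letters and show no binding.

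The deposited values were log2 intensities, and no array-level detection call came with them, and the small number of arrays limits precision. HSC markers were present: the dimmest of 13 measured, the surface receptor Procr, lay at the 72.6th percentile of all genes on the PBS arrays, and the members' means over all arrays ran from the 53.4th percentile (Klf12) to the 91.1st (Klf6). On the pIC arrays Klf12 was dimmer than its mean, as given below. An array of the RApIC group, replicate 2, stood apart from its group. The median of 18 type I interferon targets, relative to the PBS mean, stood at 1.29, where RApIC replicates 1 and 3 had 2.52 and 2.20 and the pIC arrays 2.35 and 2.37. Its median for 17 markers of T and NK cells was 0.05, where RApIC replicates 1 and 3 had 1.45 and 1.37, the pIC arrays 0.47 and 1.13, and the PBS and ATRA arrays at most 0.20. The member calls in RApIC against ATRA and the Klf12 difference between RApIC and pIC are given with and without this array. Most other results are given with it only. ATRA replicate 1 differed from its group in another list. Its median for 12 neutrophil markers was 0.56, where ATRA replicates 2 and 3 had -0.0011 and 0.07. The part of this in the Klf values was not tested.

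**Figure D1:**
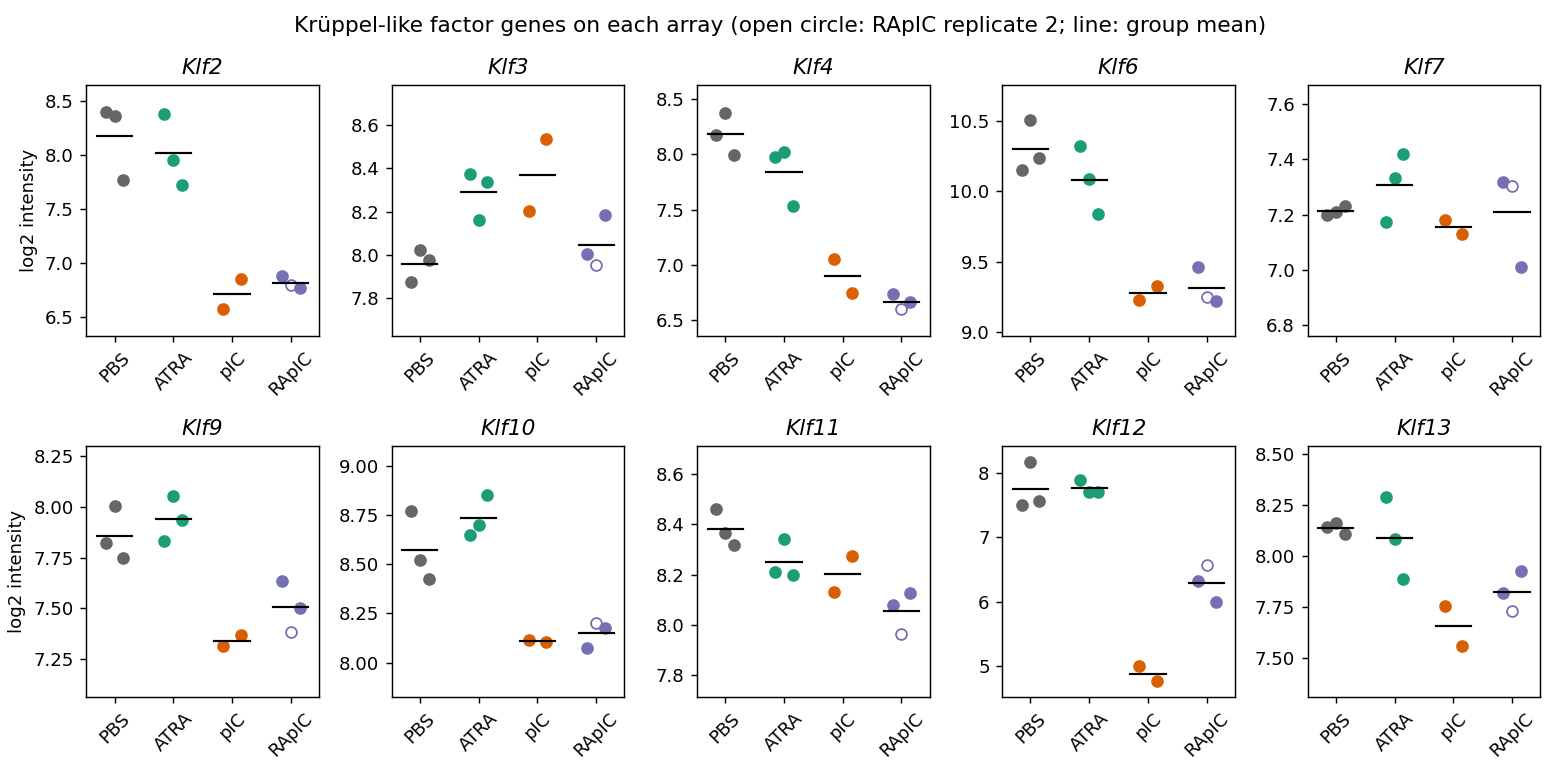
Log2 intensity (vertical axis, a separate range for each gene) of the 10 genes on every array, by group. Filled circles are arrays, the open circle is RApIC replicate 2 and the black line is the group mean; Klf2, Klf4, Klf6, Klf9, Klf10 and Klf12 lie lower on all 5 arrays with polyIC than on the 6 without it, and for Klf12 the RApIC arrays lie between pIC and the rest.

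Klf2, Klf4 and Klf6, the early-response activators, were all low on the arrays with polyIC. Klf2 read 8.39, 8.35 and 7.76 with PBS, 8.38, 7.95 and 7.72 with ATRA, 6.57 and 6.85 with pIC, and 6.88, 6.79 and 6.77 with RApIC. The highest array with polyIC lay below the lowest without it, and the spread was wider without polyIC (SD 0.35 for PBS, 0.33 for ATRA) than in RApIC (SD 0.06, n = 3). RApIC was lower than ATRA, by a difference of -1.20 ± 0.19 (standard error, SE; 2.31-fold), at an adjusted p of 0.00667 (limma, Benjamini-Hochberg over all genes).

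Klf4, which halts the cell cycle and is best known as a reprogramming factor, read 8.18, 8.38 and 7.99 with PBS, 7.98, 8.02 and 7.53 with ATRA, 7.05 and 6.74 with pIC, and 6.73, 6.60 and 6.66 with RApIC. Here too the groups with and without polyIC did not overlap, and the 3 RApIC arrays were the 3 lowest of the 11. The difference between RApIC and ATRA was -1.18 ± 0.14 (2.26-fold lower, limma adjusted p 0.0023). Klf6, which induces the cell-cycle inhibitor p21, read 10.15, 10.51 and 10.24 with PBS, 10.32, 10.09 and 9.84 with ATRA, 9.23 and 9.32 with pIC, and 9.46, 9.25 and 9.22 with RApIC. It fell by 0.77 ± 0.13 between ATRA and RApIC (1.71-fold, limma adjusted p 0.0089), and this call was lost at an adjusted p of 0.0528 when only the 6 arrays compared were fitted.

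Klf10 and Klf11, the TGF-beta-inducible early genes, differed in how clearly they moved. Klf10 read 8.77, 8.52 and 8.43 with PBS, 8.65, 8.70 and 8.85 with ATRA, 8.11 and 8.10 with pIC, and 8.07, 8.20 and 8.18 with RApIC. The 5 arrays with polyIC lay within a range narrower than that of the PBS arrays alone, and all lay below the other 6. Klf10 fell by 0.58 ± 0.10 from ATRA to RApIC (1.499-fold, limma adjusted p 0.00828). Klf11 read 8.46, 8.36 and 8.32 with PBS, 8.21, 8.34 and 8.20 with ATRA, 8.13 and 8.27 with pIC, and 8.08, 7.96 and 8.13 with RApIC. Its RApIC and ATRA arrays did not overlap, but the difference of -0.19 ± 0.08 did not pass (limma adjusted p 0.197).

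Klf9 and Klf13, which share the Sin3-recruiting design, had smaller differences. Klf9, a gene induced by glucocorticoids, read 7.82, 8.003 and 7.75 with PBS, 7.83, 8.05 and 7.93 with ATRA, 7.31 and 7.37 with pIC, and 7.63, 7.38 and 7.50 with RApIC. It fell by 0.43 ± 0.10 from ATRA to RApIC (1.35-fold, limma adjusted p 0.0252). That call was lost without ATRA replicate 2 or 3 or RApIC replicate 3 (adjusted p 0.0699 to 0.0908) and when only the 6 arrays compared were fitted (adjusted p 0.0785). Klf13, an activator of the chemokine gene Ccl5 in T cells, read 8.14, 8.16 and 8.10 with PBS, 8.29, 8.08 and 7.89 with ATRA, 7.75 and 7.56 with pIC, and 7.82, 7.73 and 7.92 with RApIC. The highest RApIC array lay above the lowest ATRA array, and the difference of -0.26 ± 0.11 did not pass (limma adjusted p 0.172).

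Klf12, a repressor of the transcription factor gene Tfap2a, showed the widest range of the 10. It read 7.50, 8.17 and 7.56 with PBS, 7.89, 7.70 and 7.71 with ATRA, 5.0003 and 4.77 with pIC, and 6.33, 6.56 and 5.995 with RApIC. The groups fell into 3 levels that did not overlap: PBS and ATRA together at the top (means 7.74 ± 0.37 and 7.76 ± 0.11, SD, n = 3 each), RApIC in the middle (6.29 ± 0.28, n = 3) and pIC at the bottom (4.89 ± 0.16, n = 2). The pIC readings were dim, near those of Sp8, a gene of the related Sp family, which read 4.91 and 4.81 with pIC. The mean of Sp8 over all arrays lay at the 20.7th percentile of all genes. Without detection calls it cannot be told whether Klf12 was still detected with pIC. The size of its differences that use the pIC arrays is therefore uncertain. From ATRA to RApIC, a comparison that the choice of Klf12 by its pIC fall did not use, it fell by 1.47 ± 0.18 (2.77-fold, limma adjusted p 0.00241). The spread in this test was pooled over all 11 arrays, including the PBS and pIC arrays. The list was also drawn up with earlier results of these arrays known.

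Klf3, the other CtBP-dependent repressor and in erythroid cells a target of Klf1, had a pattern unlike that of the rest. It read 7.87, 8.02 and 7.97 with PBS, 8.38, 8.16 and 8.34 with ATRA, 8.20 and 8.54 with pIC, and 8.004, 7.95 and 8.18 with RApIC. PBS was the lowest group, the ATRA and pIC arrays all lay above it, and the RApIC arrays overlapped with PBS. The RApIC to ATRA difference of -0.24 ± 0.11 did not pass (limma adjusted p 0.213). Klf7, a broadly expressed activator, stayed between 7.01 and 7.42 on all 11 arrays, with a RApIC to ATRA difference of -0.10 ± 0.10 that did not pass (adjusted p 0.646). It was the member with 2 probe sets, and the brighter of them is given.

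Of the 10 members, 6 (Klf2, Klf4, Klf6, Klf9, Klf10 and Klf12) were called lower and 0 higher in RApIC against ATRA, where 3.71% of all genes were called lower and 3.50% higher. All 10 differences were negative, with a median of -0.51 against a median of -0.0033 over all genes tested, and 7 members, the 6 called and Klf11, had RApIC arrays wholly below the ATRA arrays, as had 12.4% of all genes. Without RApIC replicate 2 the same 6 were called lower, and 7.51% of all genes. Without ATRA replicate 1 the same 6 were also called lower, and 275 of 22180 genes. The differences were then -1.02 ± 0.18 for Klf2, -1.11 ± 0.16 for Klf4 and -0.65 ± 0.13 for Klf6. They were -0.49 ± 0.11 for Klf9, -0.63 ± 0.11 for Klf10 and -1.41 ± 0.21 for Klf12. In a fit of only the 6 arrays, 4 were called lower (Klf2, Klf4, Klf10 and Klf12), and 0.712% of all genes. Outside the list, Klf5, Klf8, Klf14, Klf15, Klf16 and Klf17 were not called (differences -0.31 to 0.09, limma adjusted p 0.132 to 0.908). Klf1 was called higher (limma adjusted p 0.0392). The counts therefore describe these members and not the whole family, and no test was made of them as a set.

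On RApIC replicate 2 the difference from the ATRA mean was -1.22 for Klf2, -1.24 for Klf4, -0.83 for Klf6, -0.555 for Klf9, -0.53 for Klf10 and -1.20 for Klf12. Without this array the group difference was -1.195 ± 0.22 for Klf2, -1.15 ± 0.16 for Klf4, -0.74 ± 0.15 for Klf6, -0.37 ± 0.10 for Klf9, -0.61 ± 0.11 for Klf10 and -1.60 ± 0.19 for Klf12, at limma adjusted p 0.000535 to 0.0361.

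**Figure D2:**
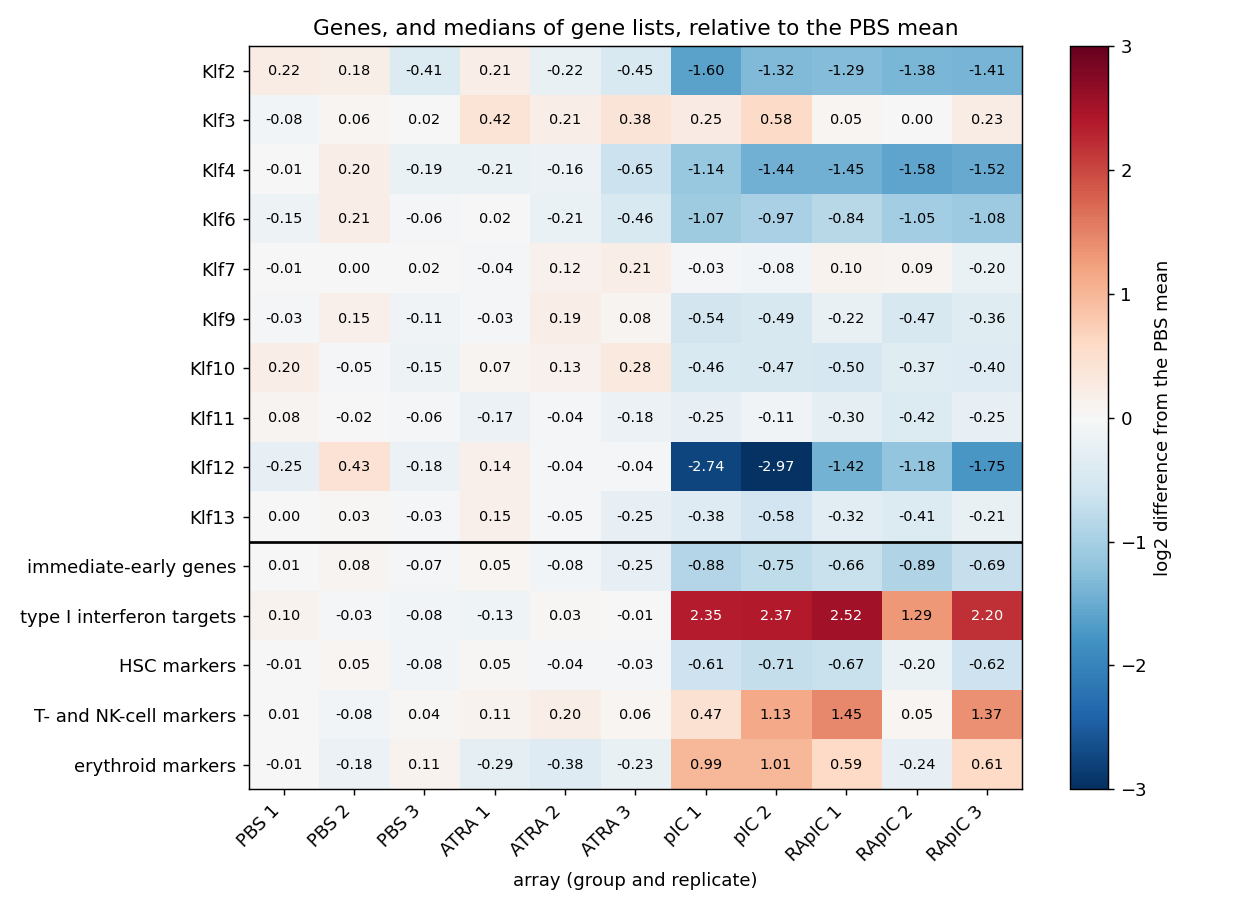
Log2 difference from the PBS mean on each of the 11 arrays (columns) for the 10 genes (upper rows) and for the medians of 5 gene lists (lower rows); blue is lower and red higher. RApIC replicate 2 has an interferon median of 1.29 and a T- and NK-cell median of 0.05, and its Klf2, Klf4 and Klf6 are as blue as on the other arrays with polyIC.

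Summed markers of T and NK cells and of erythroid cells were higher with pIC than with PBS, while RApIC arrays varied widely. The summed intensity of the 17 T- and NK-cell markers measured ran from 1427 to 1870 on the PBS arrays, 1494 to 1908 on the ATRA arrays, 10564 to 10814 with pIC and 1968 to 12309 with RApIC, and 1 of the 17 was called higher in RApIC against ATRA. On the PBS arrays 9 of the 17 were among the dimmest 40% of genes, the dimmest being Ms4a4b. The sum of 9 erythroid markers ran from 6836 to 7626 (PBS), 6135 to 6891 (ATRA), 11460 to 12688 (pIC) and 5068 to 9926 (RApIC), with 2 called higher, and the median of these markers on RApIC replicate 2 was -0.24. Of 13 HSC markers, 6 were called lower, with a median of -0.46 between RApIC and ATRA. Relative to PBS their median was -0.67, -0.20 and -0.62 on RApIC replicates 1, 2 and 3. Over all genes 3.50% were called higher and 3.71% lower in RApIC against ATRA. Of 9 B-cell markers 0 were called, and of 12 neutrophil markers 0 were called higher and 1 lower. Of 12 monocyte markers 2 were called higher and 0 lower, and of 10 megakaryocyte markers 2 higher and 1 lower. The part of shifts in cell markers in the Klf values was not tested. Fewer cells of a type and less RNA per cell cannot be told apart in sorted bulk RNA.

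Without ATRA, polyIC gave values of the same sign for 9 of the 10 members. The pIC minus PBS difference was -2.86 ± 0.21 for Klf12 (7.24-fold lower), -1.46 ± 0.21 for Klf2, -1.29 ± 0.16 for Klf4, -1.02 ± 0.15 for Klf6, -0.52 ± 0.11 for Klf9, -0.48 ± 0.12 for Klf13, -0.47 ± 0.11 for Klf10, -0.18 ± 0.09 for Klf11 and -0.06 ± 0.11 for Klf7. Klf3 had a positive value, 0.41 ± 0.12, with both pIC arrays above the PBS arrays, as in 23.4% of all genes. In all 9 of the first the pIC arrays lay wholly below the PBS arrays, as in 19.6% of all genes. As the rule for the members drew on this contrast, the count is no finding. The size of the Klf12 fall rests on its dim pIC readings.

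**Figure D3:**
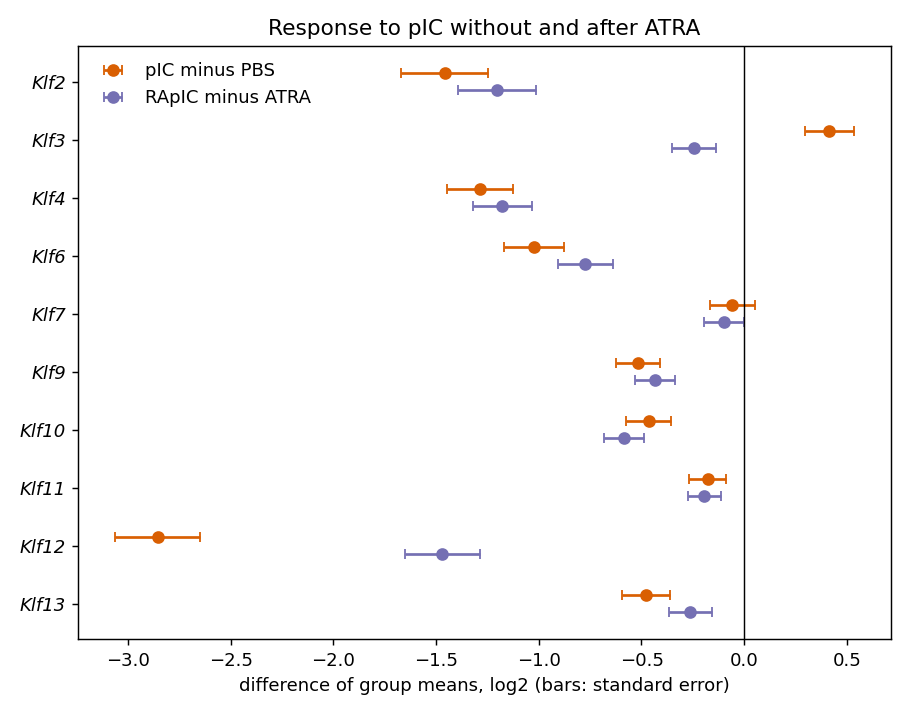
Difference of group means on the log2 scale (horizontal axis) for each gene, pIC minus PBS (orange) and RApIC minus ATRA (purple), with bars for the standard error; only the purple values were tested. For 8 of the 10 genes the paired values differ by at most 0.25, while Klf12 was at -2.86 without and -1.47 after ATRA, and Klf3 was on opposite sides of 0.

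Set side by side, the response after ATRA was 91.4% of that without it on the log2 scale for Klf4, 82.7% for Klf2, 83.7% for Klf9 and 75.6% for Klf6. For Klf12 it was 51.4%, for Klf13 54.8%, and for Klf10 and Klf11 it was 125.5% and 108.7%. No error was computed for these shares, and that of Klf11 rests on small differences (-0.18 ± 0.09 and -0.19 ± 0.08). Klf7 and Klf3 are left out here, the first because both of its differences are near 0 and the other because its differences have opposite signs. The difference of the 2 responses was 1.39 ± 0.28 for Klf12 and -0.66 ± 0.16 for Klf3. For the other 8 it was between -0.12 and 0.25, with SE of 0.12 to 0.28, and for Klf13 among them 0.22 ± 0.16. Without RApIC replicate 2 the Klf12 value was 1.25. These values contain the contrast that chose the members and were not tested. For Klf12 the share and the difference also rest on its dim pIC readings.

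The effect of ATRA given before polyIC was read from RApIC against pIC, which shares the pIC arrays with the choice of Klf12. Klf12 was chosen for its low pIC values, which raises this difference, so for Klf12 it is a description with no test. Of the other 9 members 0 passed, as did 0% of all genes, with 1 of the 9 and 10.1% of all genes at an unadjusted p under 0.05 (limma). Klf12 was 1.41 ± 0.21 higher in RApIC than in pIC (2.65-fold), its lowest RApIC array at 5.995 against a highest pIC array of 5.0003 (9.74% of all genes had RApIC arrays wholly above the pIC arrays). Without RApIC replicate 2 the value was 1.27 ± 0.21. Both values rest on the dim pIC readings of Klf12, so their size is uncertain. Klf3 was the member under the unadjusted threshold, 0.32 ± 0.12 lower in RApIC (difference -0.32, unadjusted p 0.0204, adjusted p 0.401). The remaining 8 values lay between -0.23 and 0.17, with adjusted p from 0.614 to 0.966.

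ATRA alone, read from ATRA against PBS, shares the PBS arrays with that choice. It gave 0 calls among the 10 members by limma, with 0.00451% of all genes called and 2 members and 6.80% of all genes at an unadjusted p under 0.05. Klf3 was 0.34 ± 0.11 higher with every ATRA array above every PBS array, as in 6.61% of all genes (unadjusted p 0.00939, adjusted p 0.563), and Klf4 differed by -0.34 ± 0.14 (unadjusted p 0.0379, adjusted p 0.715). Klf12 differed by 0.02 ± 0.18. The other 7 values lay between -0.21 and 0.16.

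The likeness of patterns was measured by Pearson's r over the 11 arrays, among 806 genes whose highest group mean was at least 1 log2 unit above their lowest. The arrays fall into those with and without polyIC, so r mainly reflects that split, and r after removal of group means is given beside it as a description. The 5 genes most like Klf12 were Glul, the glutamine synthetase (r = 0.990, and 0.767 without group means), Cpxm1, a carboxypeptidase-like secreted protein (0.979 and 0.666), Sfxn4, a mitochondrial sideroflexin (0.974 and 0.550), Gm20199 (0.974 and 0.501) and Ctsf, a lysosomal cathepsin (0.973 and 0.558). All 5 also had the RApIC arrays between pIC and the rest. In all 5, as in Klf12, the highest RApIC array was replicate 2, the one with the lower interferon median. The differences given below include it. Glul read 11.42, 11.61 and 11.47 with PBS, 11.57, 11.66 and 11.54 with ATRA, 10.58 and 10.50 with pIC and 10.99, 11.15 and 11.002 with RApIC. Ctsf read 8.14, 8.17 and 7.93, then 7.87, 7.99 and 8.06, then 6.35 and 6.10, then 6.78, 7.44 and 6.78, in the same order of groups. The RApIC minus pIC difference was 0.51 ± 0.09 for Glul, 0.64 ± 0.155 for Cpxm1, 0.54 ± 0.14 for Sfxn4, 0.70 ± 0.11 for Gm20199 and 0.78 ± 0.18 for Ctsf, all smaller than that of Klf12. These genes were picked for their likeness to Klf12, so their differences were not tested.

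**Figure D4:**
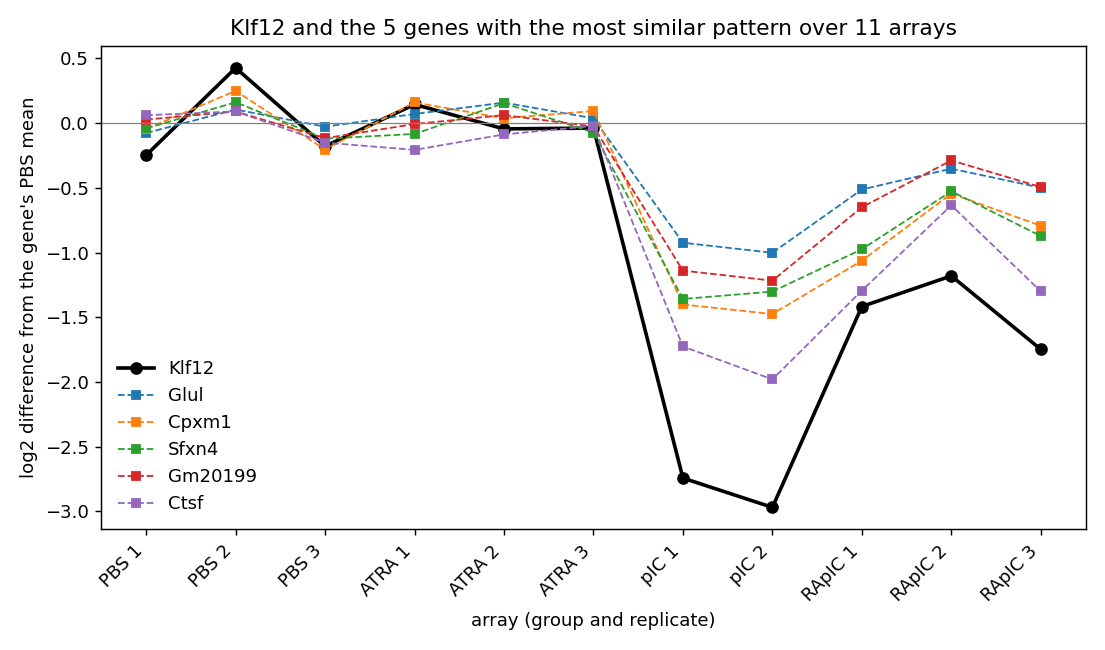
Log2 difference from each gene's own PBS mean (vertical axis) on the 11 arrays (horizontal axis) for Klf12 (black) and the 5 genes with the highest correlation with it (dashed). On the pIC arrays Klf12 is lowest, and on the RApIC arrays all 6 genes lie between their pIC and PBS values; lines join arrays for reading only.

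For the other members the 1 most alike gene is named. Klf2 was most like the immediate-early factor Fosb (r = 0.965), Klf4 like Klf6 (0.963), Klf6 like the G-protein regulator Rgs2 (0.979) and Klf13 like the nuclear receptor Nr4a2 (0.939). Klf11 was most like Nr4a3 (0.850), Klf9 like the single-stranded DNA-binding protein gene Nabp1 (0.947) and Klf10 like Spry1, a feedback inhibitor of receptor kinases (0.988). With group means removed, r was 0.674 for Klf2 and Fosb, 0.649 for Klf4 and Klf6, 0.930 for Klf6 and Rgs2 and 0.814 for Klf13 and Nr4a2. It was 0.883 for Klf11 and Nr4a3, 0.493 for Klf9 and Nabp1 and 0.892 for Klf10 and Spry1. For Klf3 and Klf7 the highest values were 0.647 (Tlcd1, 0.0849 without group means) and 0.707 (9130020K20Rik, 0.601). The group means of Klf3 and Klf7 span less than the 1 log2 unit asked of the genes searched. Genes with ranges as small as theirs were thus left out, and whether they have a closer counterpart cannot be told. Among the members themselves r was 0.944 for Klf2 and Klf4 (0.542 without group means), 0.962 for Klf2 and Klf6 (0.641), and -0.357 for the CtBP-dependent pair Klf3 and Klf12 (-0.18).

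Of 15 other Klf and Sp genes, 1 was called higher in RApIC against ATRA and 0 lower, with a median of -0.03. Over all genes the median was -0.0033, with 3.71% called lower and 3.50% higher, as for the lists that follow. The gene that rose was Klf1, the erythroid factor, by 1.16 ± 0.29 (limma adjusted p 0.0392). Klf1 read 8.91, 7.34 and 8.24 on RApIC replicates 1, 2 and 3. Sp4 (-0.29 ± 0.10), Klf16 (-0.22 ± 0.08) and Klf5 (-0.31 ± 0.12) did not pass (limma adjusted p 0.127 to 0.162). Of 20 corepressor, coactivator and ubiquitin ligase genes that act with Klf proteins, 0 were called (median 0.01). The nearest were the acetyltransferase gene Crebbp (-0.24 ± 0.07), the histone chaperone Rbbp4 (0.27 ± 0.08), Kat2a (0.25 ± 0.09) and Ep300 (-0.19 ± 0.08), at limma adjusted p 0.0631 to 0.164.

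Among 19 genes of pathways that induce Klf genes, which include targets and feedback genes of these pathways, 3 were called lower and 0 higher. Their median was -0.10. Map3k3, the kinase at the head of the ERK5 pathway that induces Klf2 and Klf4, fell by 0.525 ± 0.12 (limma adjusted p 0.0242). It read 9.15, 8.80 and 8.82 with ATRA and 8.21, 8.56 and 8.42 with RApIC. The list's other genes of that pathway are named here after their values were seen. Map2k5 (-0.10 ± 0.08), the ERK5 gene Mapk7 (0.07 ± 0.09), Mef2a (-0.09 ± 0.07), Mef2c (0.08 ± 0.07) and Mef2d (-0.04 ± 0.08) did not pass (limma adjusted p 0.536 to 0.86). Smad7, a feedback inhibitor and target of TGF-beta signalling, fell by 0.87 ± 0.19 (adjusted p 0.0251), and Per1, a clock gene that glucocorticoids induce, by 0.63 ± 0.15 (adjusted p 0.0292). Smad4, the common mediator of TGF-beta signals, did not pass (-0.20 ± 0.08, adjusted p 0.183). Of 8 known Klf2 or Klf4 targets measured, 1 was called, Cdkn1c, which encodes the p57 cell-cycle inhibitor, lower by 0.76 ± 0.15 (difference -0.76, limma adjusted p 0.0148). The integrin Itgb7 (0.68 ± 0.27), the chemokine receptor Ccr7 (0.29 ± 0.14) and the sphingosine phosphate receptor S1pr1 (-0.21 ± 0.12) did not pass (adjusted p 0.167 to 0.361).

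Of 20 immediate-early genes outside the family, 12 were called lower and 0 higher in RApIC against ATRA, with a median of -0.62. The other 8 did not pass, among them Atf3 (0.22 ± 0.20) and Egr2 (0.07 ± 0.10), the 2 with positive values, named here after their values were seen. Nr4a1, an orphan nuclear receptor, fell by 2.43 ± 0.33, Fosb, an AP-1 subunit, by 1.04 ± 0.09, Zfp36, which degrades cytokine messages, by 0.86 ± 0.09, and the phosphatase Dusp1 by 0.69 ± 0.08 (limma adjusted p 0.000567 to 0.00326). Relative to PBS the list's median stood at -0.88 and -0.75 in the pIC group and at -0.66, -0.89 and -0.69 in RApIC replicates 1, 2 and 3. Such genes also respond to the handling of tissue and cells, and no handling times are given, so the part of handling in the Klf values was not tested.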

How the data were processed

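Total RNA of sorted HSCs was isolated with a PicoPure kit and biotin-labelled with an Affymetrix kit, per the labels' protocols. The authors deposited 1 table of log2 intensities, with 41345 probe sets and 11 arrays. The tools oligo 1.36.1, RMA and limma 3.28.20 are named without role, per the submitters' processing notes. RMA includes quantile scaling, which gives arrays equal distributions and can hide a shift of all genes. Probe sets were named from the platform's annotation, which pairs 23521 of them with 1 gene symbol, 1814 with several and lists no gene for 16010. For each of 22180 genes the probe set with the highest mean was used.

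A limma model (3.58.1, R 4.3.3) of 4 group means was fitted to all 11 arrays, with 7 residual degrees of freedom. All tests were two-sided, with p-values adjusted over all genes by Benjamini-Hochberg and a threshold of 0.05. It was tested on simulated data. The alternatives were array weights, the 40% dimmest genes left out, a replicate block, cyclic loess, the mean of probe sets, only the groups compared, a trended robust prior and each array left out in turn. Named genes were all members, the 4 genes of each pathway list with the smallest adjusted p in RApIC against ATRA, and the genes with the highest correlation with a member (5 for Klf12, 1 for each other). B-cell, neutrophil, monocyte and megakaryocyte markers were scored too: 0, 0, 2 and 2 were called higher and 0, 1, 0 and 1 lower in RApIC against ATRA, of 9, 12, 12 and 10. Of the 18 type I interferon targets 17 were called higher. The members and lists were chosen with earlier results of these data known. A planned search of the Klf proteins was not made, as no protein sequences were used here. Figures were drawn with matplotlib 3.10.9 in Python 3.11.15.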

Additional observations from a re-analysis of the deposited data

Results flagged for a closer look

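The 2 differences of Klf3 with polyIC, without and after ATRA, had opposite signs. Relative to the PBS mean, both pIC arrays were higher, by 0.25 and 0.58, whereas relative to the ATRA mean all 3 RApIC arrays were lower, from -0.34 to -0.11, although the highest RApIC array (8.18) lay above the lowest ATRA array (8.16). The fall after ATRA did not pass (limma adjusted p 0.213) and the pIC minus PBS value was not tested. The difference of the responses was -0.66 ± 0.16. It was not tested, because it contains the contrast that helped to choose the members. It was -0.83 without pIC replicate 1 and -0.49 without pIC replicate 2.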

How the results depend on the processing

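The count of members called lower in RApIC against ATRA was 6, was 5 to 6 with each array left out in turn, and was 4 to 6 under the other alternatives. Of all genes, 822 were called lower in the main fit. With arrays left out it was 246 (without RApIC replicate 3) to 1665 (without RApIC replicate 2). Under the other alternatives it was 158 (only the groups compared) to 2281 (array weights). Under the replicate block 6 members were called, and 1358 of all genes in either direction against 1599 without it. Same-numbered arrays did not deviate together (r from -0.109 to 0.098), so the numbers were not taken to pair the arrays. In RApIC against pIC the count was 0, and 1 with array weights, where 112 of all genes were called. That member is Klf12, whose pIC values helped to choose the members, so that this call supports nothing. With array weights the difference of the Klf12 responses was 1.10. Small values that were not called changed sign. With arrays left out they ran from -0.10 to 0.23 (Klf12) and -0.15 to 0.0497 (Klf13) in ATRA against PBS, from -0.17 to 0.0016 (Klf7) in RApIC against ATRA, and from -0.0407 to 0.24 (Klf2) and -0.0408 to 0.084 (Klf6) in RApIC against pIC. In the last comparison array weights gave -0.024 for Klf6 and -0.0866 for Klf7. The cause was not tested. With 2 or 3 arrays a group and no detection calls, small changes cannot be told from none.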
